A study of Homo sapiens with 6 samples.

Results

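The clustered replication-dependent histone genes were taken from the deposited gene table as every protein-coding gene whose symbol begins with HIST1H, HIST2H, HIST3H or HIST4H, which gave 71 of 58735 genes. They comprised 6 genes of linker histone H1, 17 of H2A, 18 of H2B, 15 of H3 and 15 of H4. The RNA came from AsPC-1, an established human pancreatic cancer cell line. One group of 3 libraries was from a stable line made with an empty GFP-puromycin lentivirus (Vector), and the other group of 3 was from a stable line made with the same kind of virus carrying MMP28, a secreted matrix metalloproteinase (OE-MMP28). All cells had therefore been infected and selected with puromycin, and the labels did not state that the 3 libraries of a group came from separate cultures, so that p-values measure only the spread between these samples.

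Histones package DNA into nucleosomes, and most of their protein is made during DNA replication from short, intronless genes that lie in clusters. The messenger RNA of these genes normally ends just after a small stem-loop and carries no poly(A) tail. NPAT drives the transcription of these genes, and the stem-loop binding protein SLBP, together with the U7 small nuclear ribonucleoprotein, directs the cut that forms the end. Several of the genes also give a longer, polyadenylated transcript, often in cells that have stopped dividing. Library preparation thus bears on how much of this RNA is measured. Whether poly(A) RNA was selected here was not given in the sources used here.

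Total counts ranged from 13633249 to 16691458 per library, and 3 counts, taken as the most that a listed 0 could stand for, were worth between 0.180 and 0.220 CPM (counts per library total, scaled to a common sum). MMP28 itself had counts of 226, 352 and 355 in Vector and 591, 628 and 725 in OE-MMP28, with no overlap between the groups (log2 fold change 0.90, SE 0.19, adjusted p = 0.0023, the quasi-likelihood test of edgeR, adjusted over all genes). The epithelial markers EPCAM, KRT8, KRT18, KRT19 and CDH1 had at least 1136 counts in every library. Of the 9 fibroblast and leukocyte markers, CD3E was at 0, COL1A2 and PTPRC reached at most 1 count, LUM was the exception with 1499 to 2707 counts, and the others reached at most 30. Mitochondrial genes took 11.9%, 14.5% and 14.8% of the counts in Vector and 11.5%, 8.80% and 11.9% in OE-MMP28, and the part of this in the results was not tested.

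The 3′ stem-loop is printed for the 7 members below because the results turn on how far each gene model reaches beyond it. The windows were read from GENCODE 29 transcripts (GRCh38), 5′ to 3′ on the gene's own strand, as DNA letters, and the capitals mark the 16 bases of the stem-loop.
HIST1H2AC: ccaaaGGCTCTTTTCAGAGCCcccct
HIST1H2BC: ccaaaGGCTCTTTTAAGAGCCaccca
HIST1H2BD: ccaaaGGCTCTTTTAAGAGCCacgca
HIST1H4H: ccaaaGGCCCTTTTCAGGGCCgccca
HIST1H4I: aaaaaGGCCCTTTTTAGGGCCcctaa
HIST2H2BE: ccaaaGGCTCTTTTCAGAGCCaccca
HIST3H2A: ataaaGGCTCTTTTCAGAGCCaccta
A stem-loop with at most 1 mismatch to the histone stem-loop consensus was found in a transcript of 32 of the 71 members. Only annotated transcripts were searched. In 33 members the model covers the coding part alone, so the bases after it, where a stem-loop would lie, were not searched. Counted from 1 at the 5′ end of the 16 bases, HIST1H2BC and HIST1H2BD differed from the consensus by C10A and HIST1H4I by C10T, all within the loop. The annotated transcript continued beyond the stem-loop by 1128 bases in HIST1H2AC, 1655 in HIST1H4H, 1729 in HIST2H2BE, 390 in HIST3H2A, 212 in HIST1H4I, and by 39 and 116 bases in HIST1H2BD and HIST1H2BC. HIST1H2AC, HIST1H2BC, HIST1H2BD and HIST1H4H also have a spliced model.

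Most members were hardly detected. Of the 71, 14 had no count in any library and 39, these included, had at most 3 counts in every library. Among the 14, HIST1H3D, HIST1H2AD, HIST2H3PS2 and HIST1H2AM lie wholly or mostly within same-strand exons of another annotated gene. HIST1H2AK lies within exons of HIST1H2BN on the opposite strand. Whether reads in such shared bases were left uncounted was not tested, so a 0 in these genes does not show that their RNA was absent. Between 36 and 40 members were above 0 in the Vector libraries and between 41 and 44 in the OE-MMP28 libraries. A minimum-count filter over the whole table left 21 members for testing, and the 50 others held 477 of the 8894 member counts. HIST1H4C, an H4 gene of the largest cluster, is an example with 2, 0 and 0 counts in Vector and 0, 3 and 0 in OE-MMP28. The testis members HIST1H1T, HIST1H2AA and HIST1H2BA were at 0 throughout and HIST3H3 reached at most 2 counts. All members together made up between 0.00680% and 0.0114% of a library.

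The members that were detected were mainly those whose gene model is long. In 33 members the GENCODE 29 model covered the coding part alone, and 28 of these had at most 3 counts in every library, with 3 tested. In 25 members the model was spliced or ran more than 100 bases past the stem-loop, and 3 of these had at most 3 counts, with 17 tested. Of the 13 remaining members, 8 had at most 3 counts and 1 was tested. The median level, as FPKM (fragments per kilobase of gene model, scaled to the library total), was 0.034 in the first set, 0.339 in the second and 0.112 in the third. The models of these sets also differ in length, and the part of length in the counts was not tested. The first set also holds HIST1H3D, HIST1H2AD, HIST2H3PS2, HIST1H2AM and HIST1H2AK, whose exons overlap those of other genes.

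A poly(A) signal (AATAAA or ATTAAA, on the transcript strand) stood within the last 50 bases of a protein-coding transcript in 22 of the 71 members (31.0%), against 82.0% of all 19659 protein-coding genes. Of these 22 members, 13 were tested and 3 had at most 3 counts, and none was at 0 in every library. Of the 49 members with no such signal in that window, 8 were tested and 36 had at most 3 counts. These 49 include all 33 members whose model covers the coding part alone. In those 33 the window holds coding sequence, so the search could not reach a signal beyond it. A signal was found in 19 of the 25 members with a long or spliced model and in 3 of the 13 remaining. HIST1H2BK and HIST1H1C, the most abundant members, were among the 49, and their models cover the coding part alone. The 10 members described elsewhere as having polyadenylated forms held 71.1% of all member counts.

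Other RNAs that lack a poly(A) tail were unevenly represented. The genes annotated as snoRNA summed to between 714 and 1047 counts per library (57.6 ± 4.18 CPM in Vector and 60.3 ± 5.47 CPM in OE-MMP28), and those annotated as snRNA to between 558 and 805 counts (50.2 ± 2.98 and 43.4 ± 7.36 CPM), with overlapping groups for both. Among 8 single genes, RN7SK, RN7SL1, RMRP, RPPH1, SCARNA2 and RNU7-1, the RNA of the U7 particle itself, were at 0 in all 6 libraries, and the telomerase RNA TERC reached 2 counts. RN7SL2, an RNA of the signal recognition particle, had 229, 175 and 72 counts in Vector and 178, 466 and 598 in OE-MMP28. It passed the edgeR test (log2 fold change 1.23, SE 0.35, adjusted p = 0.0135, edgeR) although its groups overlapped, but it passed in 12 of 17 alternatives. It was lost without OE-MMP28 replicate 2 (adjusted p = 0.0668) or OE-MMP28 replicate 3 (adjusted p = 0.125), with DESeq2 (adjusted p = 0.187) and with limma on log2(FPKM + 1) and log2(FPKM + 0.1) (adjusted p = 0.158 and 0.159). How these RNAs move with the histone members was not tested.

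Among the members, HIST1H2BK, an H2B gene, had the highest level, at 34.5 ± 0.973 FPKM in Vector and 58.8 ± 9.30 FPKM in OE-MMP28 (SD, n = 3). The linker histone gene HIST1H1C followed at 18.4 and 23.3 FPKM, and HIST1H2BD at 10.3 and 14.3 FPKM. HIST3H2A, HIST1H2AC and HIST1H4I came next, at 12.3, 6.83 and 5.29 FPKM in Vector and 3.39, 7.62 and 8.69 FPKM in OE-MMP28. These 6 genes held 72.6% of the member counts. From the seventh rank down, mean levels over the 6 libraries were under those of HIST1H4I, and HIST2H2AA3 took the seventh rank through 1 library alone.

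**Figure D1:**
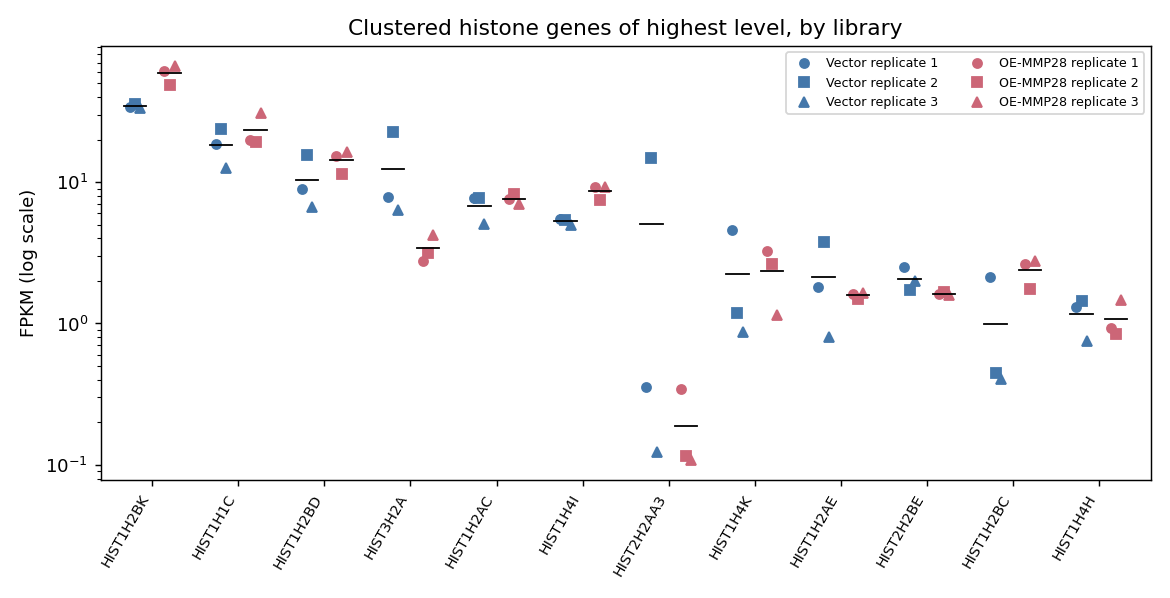
FPKM (log axis) of the 12 members with the highest mean level, in order of that level, with 1 point per library and a line at each group mean. HIST1H2BK and HIST1H4I stood higher in all 3 OE-MMP28 libraries, HIST3H2A stood lower, and for HIST2H2AA3 the library Vector replicate 2 stood far above the other 5.

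In OE-MMP28, 2 members rose, 1 fell, and 18 of the 21 tested did not pass the test. At an adjusted p under 0.05, 11.7% of all 15319 genes tested were called higher and 11.6% lower, 23.4% in either direction, against 3 of 21 members (14.3%). In CPM, 8 of the 21 members had groups that did not overlap, against 38.1% of all genes tested. The fold change was positive for 14 members and negative for 7, with a median log2 fold change of 0.30, against 0.01 over all genes tested. The members' median was 0.15 without Vector replicate 3, 0.14 with limma on log2(FPKM + 1) over 16 members and 0.03 with a stricter count filter that left 12 members. The share called was below that over all genes, the share without overlap was the same, and the calls also depended on the library left out. The number of members higher was 4 without Vector replicate 1, 3 without Vector replicate 2, and 1 without Vector replicate 3 or OE-MMP28 replicate 3.

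HIST1H2BK (ENSG00000197903, GRCh38 chr6:27146418-27146798, minus strand, a single exon) had 199, 183 and 189 counts in Vector and 369, 293 and 427 in OE-MMP28. Every OE-MMP28 library lay above every Vector library. The log2 fold change was 0.78 (SE 0.18, adjusted p = 0.0040, edgeR), and the gene stayed past the threshold in all 18 alternative settings. Its reads are uncertain as to origin, because 74.1% of the 50-base pieces of its transcript also occur in other genes. The largest overlap was with H2BFS, which shared 61.4% of the pieces and had 2, 0 and 0 counts in Vector and 2, 1 and 0 in OE-MMP28.

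HIST1H4I (ENSG00000276180, GRCh38 chr6:27138588-27139881, plus strand, a single exon), which encodes H4 like all members of its class, had 108, 95 and 95 counts in Vector and 190, 154 and 202 in OE-MMP28. The lowest OE-MMP28 library was again above the highest Vector library. The log2 fold change was 0.73 (SE 0.21, adjusted p = 0.0143, edgeR), and 0.562% of its 50-base pieces were shared with other genes. The call was lost without Vector replicate 3 (adjusted p = 0.0658) and without OE-MMP28 replicate 3 (adjusted p = 0.0538), while the log2 fold change stayed between 0.62 and 0.81 in all alternatives.

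HIST3H2A (ENSG00000181218, GRCh38 chr1:228456979-228457873, minus strand, a single exon), an H2A gene outside the chromosome 6 cluster, had 107, 274 and 84 counts in Vector and 39, 45 and 64 in OE-MMP28. All 3 Vector libraries were above the OE-MMP28 libraries, and Vector replicate 2 was far above the rest. The log2 fold change was -1.83 (SE 0.37, adjusted p = 0.0014, edgeR). Without Vector replicate 2 it was -1.05 and still passed the test, and it missed the threshold with limma on log2(FPKM + 1) (adjusted p = 0.0537). No exon of another gene overlapped it, and 0.591% of its pieces were shared.

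**Figure D2:**
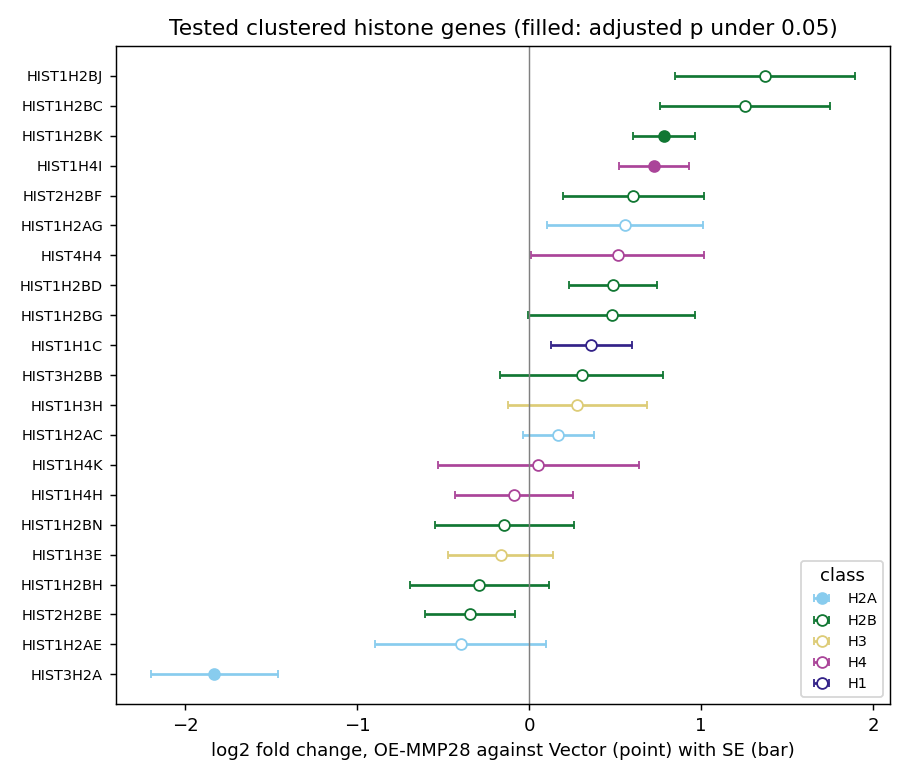
Log2 fold change (OE-MMP28 against Vector, edgeR) with its SE for the 21 tested members, in order, coloured by histone class and filled where the adjusted p was under 0.05. HIST3H2A lay at -1.83, the other 20 lay between -0.40 and 1.37, and HIST1H2BK and HIST1H4I were the filled points above 0.

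The largest positive estimates belonged to weakly counted H2B genes that did not pass the test. HIST1H2BJ had 9, 2 and 5 counts in Vector and 14, 16 and 16 in OE-MMP28 (log2 fold change 1.37, SE 0.52, adjusted p = 0.0639, edgeR). It passed in 1 of 17 alternatives, without Vector replicate 1 (1.92, adjusted p = 0.0360), and its estimate ranged from 0.55, with limma on log2(FPKM + 1), to 1.92. HIST1H2BC had 27, 5 and 5 counts in Vector and 35, 23 and 39 in OE-MMP28 (log2 fold change 1.25, SE 0.50, adjusted p = 0.0725, edgeR). Vector replicate 1 overlapped the OE-MMP28 libraries for HIST1H2BC, and leaving it out gave 2.48 (adjusted p = 0.0013, edgeR). HIST1H2BC also passed with limma voom (adjusted p = 0.0291) and with no filter on low counts (adjusted p = 0.0285).

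Abundant members that did not pass the test were HIST1H1C, HIST1H2BD and HIST1H2AC. HIST1H1C had 183, 207 and 119 counts in Vector and 201, 197 and 332 in OE-MMP28, with overlapping groups (log2 fold change 0.36, 95% interval -0.13 to 0.85). HIST1H2BD had 119, 182 and 85 counts against 209, 157 and 240, with Vector replicate 2 inside the range of OE-MMP28 (log2 fold change 0.48, 95% interval -0.05 to 1.02), and it passed without that library (0.89, adjusted p = 0.0085, edgeR). HIST1H2AC had 197, 174 and 124 counts against 199, 219 and 197 (log2 fold change 0.17, 95% interval -0.26 to 0.60). The intervals of HIST1H1C and HIST1H2BD include the change of HIST1H2BK (0.78), and that of HIST1H2AC does not.

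Among the remaining members of higher level, HIST2H2BE, an H2B gene with a long polyadenylated form, had 84, 51 and 65 counts in Vector and 56, 58 and 59 in OE-MMP28 (log2 fold change -0.34, adjusted p = 0.373, edgeR). In CPM its groups did not overlap, at 4.56 ± 0.864 in Vector and 3.60 ± 0.107 in OE-MMP28. HIST1H4H had 43, 42 and 24 counts against 32, 29 and 53 (log2 fold change -0.09), and HIST4H4, the single member on chromosome 12, had 11, 6 and 7 against 17, 7 and 14 (0.51). HIST1H4K had 22, 5 and 4 counts against 16, 13 and 6 (0.05), and all of its 50-base pieces also occur in HIST1H4J, so its counts are uncertain. HIST1H2AE had 14, 26 and 6 counts against 13, 12 and 14 (-0.40). The only H3 genes tested, HIST1H3E and HIST1H3H, had log2 fold changes of -0.17 and 0.28.

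The other H2B genes tested had log2 fold changes of both signs and none passed. HIST2H2BF had 13, 10 and 12 counts in Vector and 20, 17 and 22 in OE-MMP28, the groups not overlapping (0.60, adjusted p = 0.306, edgeR), and HIST1H2BG had 13, 8 and 7 against 10, 21 and 12 (0.48, and 0.07 to 0.74 when 1 library was left out). HIST1H2BH had 28, 17 and 23 counts against 31, 17 and 13 (-0.29, and -0.75 to -0.03 when 1 library was left out), and HIST1H2BN had 35, 16 and 29 against 39, 25 and 15 (-0.14). Of the 50 members not tested, 11 had more than 3 counts in some library, the highest after HIST2H2AA3 being HIST2H4B with 20, 7 and 5 counts against 8, 0 and 10, and HIST1H3G with 17, 5 and 4 against 17, 6 and 8. HIST2H4B shares 97.2% of its pieces with other genes, so its counts are uncertain.

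HIST2H2AA3 and HIST2H2AA4 are copies of an H2A gene that share nearly all of their sequence, 100% and 97.1% of their pieces being found elsewhere. HIST2H2AA3 had 3, 109 and 1 counts in Vector and 3, 1 and 1 in OE-MMP28, and HIST2H2AA4 had 0, 16 and 1 against 0, 1 and 1. Nearly all of these counts thus came from Vector replicate 2, and neither gene passed the filter for testing. The same library held the highest count of HIST3H2A and, among the histone genes outside the clusters, of H2AFJ, a gene named after its values were seen, which had 451, 1884 and 448 counts in Vector and 502, 641 and 804 in OE-MMP28. For H2AFJ the log2 fold change was -0.72 with this library and 0.43 without it, and neither passed the test (adjusted p = 0.186 and 0.121, edgeR). It passed as lower without Vector replicate 1 (-1.07, adjusted p = 0.0122), without Vector replicate 3 (-1.06, adjusted p = 0.0199) and with no filter on low counts (-0.72, adjusted p = 0.00066), all of which kept Vector replicate 2.

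Summed by library, the members had 1377, 1548 and 991 counts in Vector and 1646, 1450 and 1882 in OE-MMP28. After scaling these were 90.7 ± 23.5 CPM in Vector and 103 ± 10.5 CPM in OE-MMP28 (SD, n = 3), a log2 ratio of 0.19 with overlapping groups. The ratio was 0.39 without Vector replicate 2, 0.02 without Vector replicate 3 and -0.04 without the 3 members of highest count. A sum of RNA over bulk cells cannot tell more cells in S phase from more histone RNA per cell.

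By class, the H2B sum stood apart between the groups, at 33.9 ± 3.95 CPM in Vector and 48.3 ± 5.55 CPM in OE-MMP28 (log2 ratio 0.51), of which HIST1H2BK made up 13.1 and 22.6 CPM. Without HIST1H2BK the log2 ratio of the H2B sum was 0.31, and the groups overlapped, Vector replicate 2 lying just above OE-MMP28 replicate 2. The H2A members summed to 27.7 ± 15.4 CPM in Vector and 18.3 ± 0.881 CPM in OE-MMP28 (log2 ratio -0.60). Without HIST3H2A and HIST2H2AA3, the H2A sums were 13.9 ± 3.35 and 15.1 ± 1.06 CPM, and without Vector replicate 2 the log2 ratio was -0.05. The H1 sums were 11.97 ± 3.69 and 15.4 ± 4.49 CPM, the H3 sums 5.14 ± 1.24 and 5.04 ± 0.426 CPM, and the H4 sums 11.95 ± 2.10 and 16.3 ± 2.46 CPM, all with overlapping groups. No test was made on these sums.

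**Figure D3:**
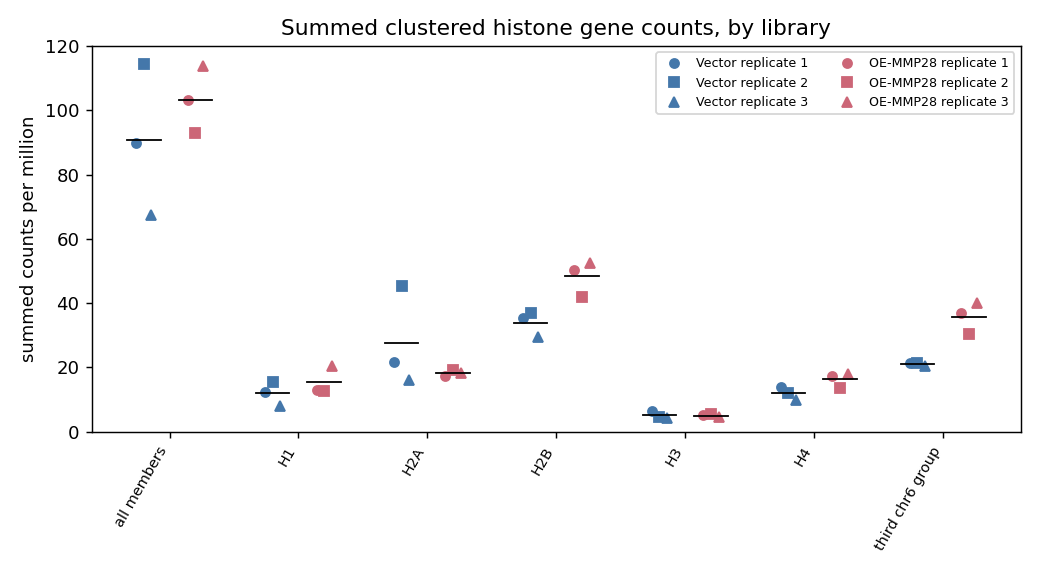
Summed CPM of all members, of each histone class and of the third group of genes on chromosome 6, with 1 point per library and a line at each group mean. The H2B sum and the third chromosome 6 group were higher in all 3 OE-MMP28 libraries, and the wide spread of H2A in Vector came from replicate 2.

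By position, 55 members lie on chromosome 6 in 4 groups separated by long gaps. The third of these (GRCh38 chr6:27125897-27147515), with 5 members, had 326, 289 and 299 summed counts in Vector and 590, 475 and 661 in OE-MMP28, or 21.0 ± 0.560 and 35.8 ± 4.88 CPM (log2 ratio 0.77). It holds both members that rose, HIST1H2BK and HIST1H4I, and all 4 of its tested members had a positive fold change with no overlap of the groups in CPM. Over all genes tested, 38.1% had no overlap and 23.4% were called in either direction. HIST1H2BJ and HIST1H2AG, the other tested members of the third group, did not pass the test. HIST1H2AG had 10, 7 and 10 counts against 17, 12 and 15 (log2 fold change 0.56, adjusted p = 0.405, edgeR). HIST1H2BK shares 11.1% of its 50-base pieces with HIST1H2BJ, so the values of these 2 genes may not be independent. The fifth, HIST1H2AH, had at most 2 counts. Without HIST1H2BK the sums of the group were 7.88 ± 0.401 and 13.2 ± 1.36 CPM (log2 ratio 0.75).

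The largest group (GRCh38 chr6:26017085-26285638) had 32 members, of which 9 were tested and none passed (edgeR, 1 at an unadjusted p under 0.05, HIST1H2BC), and its sums were 43.8 ± 12.2 and 52.8 ± 5.42 CPM. The first group had 2 members, both at 0, and the fourth had 16, of which 3 were tested and none passed (edgeR, none at an unadjusted p under 0.05). Of the 20 other protein-coding genes that lie within the chromosome 6 span, 14 were tested, 1 was higher and 2 were lower, with a median log2 fold change of -0.07. Their share called was 21.4%, near the 23.4% over all genes tested. None of these genes lies inside the third group, so its values cannot be set against neighbours within it. Away from chromosome 6, the 12 HIST2 members on chromosome 1 summed to 122, 204 and 91 counts in Vector and 97, 85 and 99 in OE-MMP28, and the 3 HIST3 members, also on chromosome 1, to 116, 286 and 94 against 51, 57 and 83. In CPM the HIST2 sums were 9.75 ± 4.71 and 5.84 ± 0.341 (log2 ratio -0.74). The HIST3 sums were 11.7 ± 8.20 and 3.96 ± 0.951 CPM (log2 ratio -1.57), and for both sums the groups did not overlap. The HIST2 sum held the 109 counts of HIST2H2AA3 in Vector replicate 2, and HIST3H2A made up most of the HIST3 sum. That the members of the third group differ from the members elsewhere was not tested.

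The promoters of 3 members are printed, HIST1H2BK as the most abundant member that rose, HIST1H2BJ as a gene of the same group with the largest estimate, and HIST3H2A as the member that fell. They are RefSeq windows on GRCh38.p14 from 250 bases before to 50 bases after the start, 5′ to 3′ on the gene's strand, and capitals mark matches on either strand to the octamer ATTTGCAT, to CCAAT and to TATAAA.
HIST1H2BK (chr6:27146809-27147108, minus): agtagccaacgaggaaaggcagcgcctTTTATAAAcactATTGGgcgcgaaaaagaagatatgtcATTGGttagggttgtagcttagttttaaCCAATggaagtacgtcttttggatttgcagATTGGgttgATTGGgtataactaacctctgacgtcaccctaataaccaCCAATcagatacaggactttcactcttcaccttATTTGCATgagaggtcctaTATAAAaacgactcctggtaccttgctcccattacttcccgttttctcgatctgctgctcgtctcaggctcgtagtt
HIST1H2BJ (chr6:27132746-27133045, minus): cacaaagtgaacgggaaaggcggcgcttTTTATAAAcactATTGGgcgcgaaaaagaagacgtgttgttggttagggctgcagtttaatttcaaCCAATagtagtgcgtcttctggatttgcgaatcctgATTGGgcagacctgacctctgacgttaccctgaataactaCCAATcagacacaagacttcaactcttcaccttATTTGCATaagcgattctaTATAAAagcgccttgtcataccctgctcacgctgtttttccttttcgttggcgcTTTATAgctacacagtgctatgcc
HIST3H2A (chr1:228457824-228458123, minus): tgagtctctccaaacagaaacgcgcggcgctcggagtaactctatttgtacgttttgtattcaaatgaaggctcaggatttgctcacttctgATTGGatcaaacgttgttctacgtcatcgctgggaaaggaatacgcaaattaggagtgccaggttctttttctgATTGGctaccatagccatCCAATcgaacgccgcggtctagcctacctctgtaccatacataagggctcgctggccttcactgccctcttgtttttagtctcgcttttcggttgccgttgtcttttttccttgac
HIST1H2BK and HIST1H2BJ held all 3 motifs, and HIST3H2A held CCAAT alone. A RefSeq promoter was matched to 62 of the 71 members, and HIST1H4I was not among them. The octamer was found in 13 of 16 H2B promoters and 11 of 16 H2A promoters, in none of the 30 promoters of H1, H3 and H4 genes, and in 1.77% of all 35116 promoters. CCAAT was found in 83.9% of the member promoters against 34.6% of all promoters, although in 2 of 12 H4 promoters, and TATAAA in 69.4% against 11.5%. AAACACA, the H1 box, was present in all 6 H1 promoters and in 5.64% of all promoters. It was also found in 1 of 16 H2A and 2 of 12 H3 promoters, and in no H2B or H4 promoter. These matches describe the letters of the window only.

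The promoter windows of 10 pairs of members, each an H2A gene beside an H2B gene on opposite strands, overlapped by 253 to 286 bases. A motif within these shared bases was counted for both genes, so the H2A and H2B counts above are not independent. HIST3H2A shares 271 bases of its window with HIST3H2BB, which had 7, 12 and 10 counts in Vector and 11, 11 and 18 in OE-MMP28. The log2 fold change of HIST3H2BB was 0.30 (SE 0.47, adjusted p = 0.686, edgeR) beside -1.83 for HIST3H2A, with ranges of 0.06 to 0.54 and of -2.14 to -1.05 when 1 library was left out. In 4 of the 10 pairs both genes were tested. In the pair of HIST1H2BJ and HIST1H2AG the values were 1.37 and 0.56, and in the pair of HIST1H2BC and HIST1H2AC they were 1.25 and 0.17. In the pair of HIST1H2BG and HIST1H2AE they had opposite signs, 0.48 and -0.40, neither of which passed the test. The differences within pairs were not tested.

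Histone genes outside the clusters mostly give polyadenylated RNA, and many, though not all, supply variants throughout the cell cycle. Together they were far more abundant. The 12 such genes summed to 2059 ± 82.3 CPM in Vector and 2455 ± 137 CPM in OE-MMP28, with no overlap. Of the 11 tested, 4 rose and none fell (H2AFJ fell in 3 of 18 alternatives, as above): H2AFZ, the H2A.Z variant (log2 fold change 0.70, adjusted p = 0.0018), H2AFX, which is phosphorylated at DNA breaks (0.79, adjusted p = 0.0023), H2AFY2, a macroH2A (1.32, adjusted p = 0.00083), and H1FX, a linker histone (0.77, adjusted p = 0.0059, all edgeR). H2AFZ, H2AFX and H2AFY2 passed in all 18 alternatives and H1FX in 16, its call being lost with limma on FPKM. H2AFZ had 3392, 2485 and 3077 counts in Vector and 4810, 5224 and 6001 in OE-MMP28. The median log2 fold change of the 11 was 0.24, and 36.4% of them were called, against 23.4% of all genes tested. Their difference from the clustered members was not tested.

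Of 19 genes for making and degrading clustered histone mRNA, 4 rose and none fell, with a median log2 fold change of 0.07. The share called, 21.1%, was near the 23.4% over all genes tested. Leaving out 1 library gave 2 to 4 higher and medians of 0.03 to 0.19. The count higher was 2 without Vector replicate 2 or OE-MMP28 replicate 1, TUT4 was lower without the latter, and the median was 0.03 without Vector replicate 3, 0.19 without Vector replicate 1 and 0.13 without Vector replicate 2 or OE-MMP28 replicate 1. NPAT had 757, 580 and 852 counts in Vector and 1495, 1092 and 1061 in OE-MMP28 (log2 fold change 0.60, adjusted p = 0.0162, edgeR), and the call was lost in 4 of 18 alternatives, without Vector replicate 2 or OE-MMP28 replicate 1 and with limma on log2(FPKM + 1) or log2(FPKM + 0.1). The others that rose were CPSF2 (0.92) and CSTF2 (0.58), parts of the 3′-end processing machinery, and NCBP2 (0.76), a subunit of the nuclear cap-binding complex. CPSF2 and NCBP2 passed in all 18 alternatives and CSTF2 in 11, its call being lost without any 1 library other than Vector replicate 1 and with limma on FPKM. SLBP had 1070, 672 and 913 counts against 1382, 1111 and 1174 (0.33, SE 0.16, adjusted p = 0.149, edgeR), higher in CPM in all 3 OE-MMP28 libraries, and CASP8AP2, a partner of NPAT, had a value of -0.07. Of 16 histone chaperones, 3 rose and none fell, namely SUPT16H (0.81) and SSRP1 (0.50), the subunits of FACT, and ASF1B (0.70), which carries H3 and H4. SUPT16H and ASF1B passed in all 18 alternatives and SSRP1 in 15, its call being lost without Vector replicate 2, Vector replicate 3 or OE-MMP28 replicate 2. The number of chaperones higher was 5 without Vector replicate 1. With all libraries, 18.8% of the chaperones were called, against 23.4% of all genes tested.

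Of 24 genes used in S phase, 15 rose and none fell (edgeR, adjusted p under 0.05), with a median log2 fold change of 0.57. The share called was 62.5%, against 23.4% in either direction over all genes tested. MCM2, a subunit of the replicative helicase, had 728, 451 and 611 counts in Vector and 1348, 1746 and 1266 in OE-MMP28 (log2 fold change 1.15, adjusted p = 0.00011, edgeR). PCNA, the sliding clamp of DNA polymerase, had 2973, 1830 and 2810 counts against 4748, 4068 and 4897 (0.71, adjusted p = 0.0029, edgeR). The count of genes higher was 9 without Vector replicate 2 and 6 without OE-MMP28 replicate 2, and none fell in any leave-one-out fit. The clustered members, tested in the same libraries, had 2 of 21 higher. None of these 21 exceeded 427 counts in a library (HIST1H2BK), and the part of low counts in the number of calls was not tested. Whether the lists differ from each other was not tested.

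**Figure D4:**
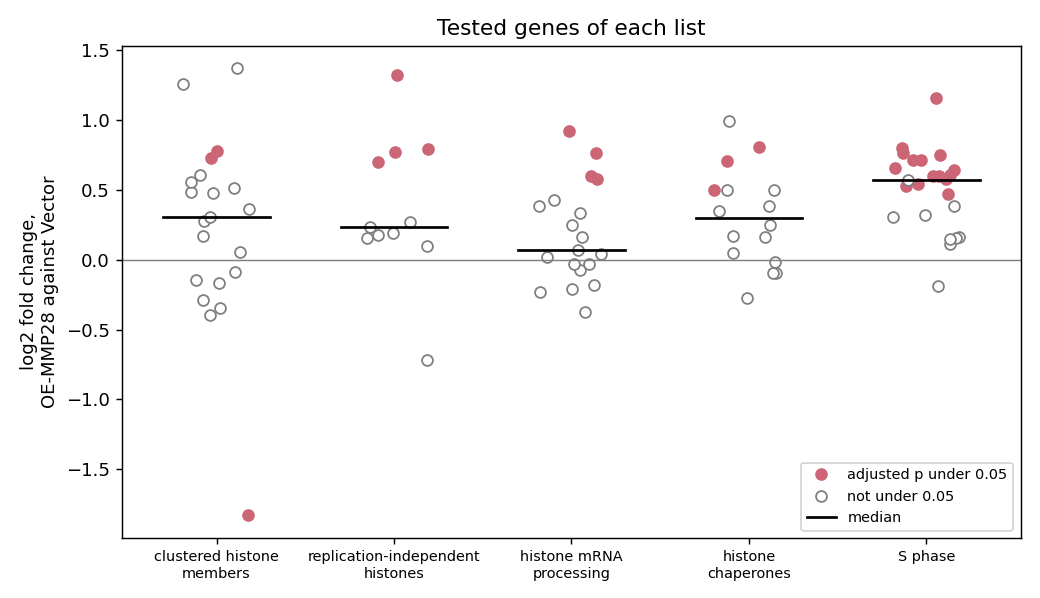
Log2 fold change (OE-MMP28 against Vector) of each tested gene of the clustered members and of 4 gene lists, with filled points for an adjusted p under 0.05 and a line at the median. The S phase median lay at 0.57 and that of the clustered members at 0.30, with HIST3H2A at the bottom.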

How the data were processed

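RNA was sequenced in 6 AsPC-1 libraries, 3 of Vector and 3 of OE-MMP28, prepared from total RNA with a NEBNext Ultra kit. The authors deposited whole-number read counts per gene, neither normalized nor pooled, and FPKM values made from them. The submitters' processing notes name HISAT2 2.0.5 and featureCounts 1.5.0-p3; poly(A) selection, strand and the handling of reads that match several places were not given in the sources used here. All 58735 gene identifiers, starts and ends were those of GENCODE 29 on GRCh38. The deposited columns of the authors' own comparison (group means, log2 fold change, p and adjusted p) were not used, and 0 per-sample columns were left unmapped.

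Counts were tested with edgeR 4.0.16 (R 4.3.3), by the quasi-likelihood test with TMM scaling, filterByExpr (minimum count 10, minimum total 15) and a model of group alone. Adjustment was by Benjamini-Hochberg over 15319 genes. The study's methods name limma, which was run as an alternative (limma 3.58.1), as was DESeq2 1.42.0. The procedure was tested on simulated data. Intervals are 95%, from the SE and the t distribution of the fit. The limit of 3 counts covers counting error only, because no molecular identifiers marked single molecules.

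Members and gene lists were chosen with earlier results of these data known. Members were named if among the 12 of highest mean FPKM, if past an adjusted p of 0.05, or if listed for described poly(A) forms or testis expression, and list genes if past an adjusted p of 0.05, with SLBP, NPAT and CASP8AP2 always. HIST1H2BJ, HIST1H2AG, HIST1H2AH, HIST1H3E, HIST1H3H, HIST1H4C, HIST1H3G, HIST2H4B, HIST2H2BF, HIST1H2BG, HIST1H2BH, HIST1H2BN, HIST3H2BB, HIST1H4J, HIST1H3D, HIST2H3PS2, HIST1H2AD, HIST1H2AM, HIST1H2AK, H2BFS, TUT4 and H2AFJ were named after their values were seen. Sequences came from GENCODE 29 transcripts and RefSeq promoters. A stem-loop was allowed 1 mismatch, and genes were called sharing where a 50-base piece was identical.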

Additional observations from a re-analysis of the deposited data

How the results depend on the processing

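The 18 alternative fits changed the library set, scaling, filter, test, unit or genes used. The number of members higher was 2, and between 1 and 4 when 1 library was left out; without Vector replicate 1 it was 4, and it was 1 without Vector replicate 3 and without OE-MMP28 replicate 3. The number of members lower was 1. It was 2 with no filter on low counts, where HIST2H2AA3 was added, and 0 with limma on log2(FPKM + 1). HIST1H2BK kept its direction and its call in all 18, and HIST3H2A its direction in all 18 and its call in 17. The summed H2A log2 ratio was -0.60, lay between -0.87 and -0.051 when 1 library was left out, and was -1.57 without the 3 members of highest count overall; the H2B ratio was then 0.31.

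Directions turned when 1 library was left out for HIST1H2AC, HIST1H4K, HIST1H2AE, HIST1H4H, HIST1H2BN, HIST1H3E, CASP8AP2 and H2AFJ, none of which passed the test in the edgeR fit with the usual filter. H2AFJ passed as lower in 3 alternatives. HIST1H4K lay between -0.33 and 1.17, with -0.24 without Vector replicate 2, -0.33 without Vector replicate 3, -0.26 without OE-MMP28 replicate 1 and -0.051 without OE-MMP28 replicate 2. HIST1H4H was between -0.37 and 0.084, with 0.0032 without Vector replicate 1, 0.084 without Vector replicate 2 and 0.043 without OE-MMP28 replicate 2. Without Vector replicate 2 HIST1H2AE was 0.28 (range -0.79 to 0.28) and H2AFJ 0.43 (range -1.07 to 0.43). HIST1H2AC was -0.0075 without Vector replicate 3 (range -0.0075 to 0.27), and CASP8AP2 0.0064 without OE-MMP28 replicate 2. HIST1H2BN lay between -0.56 and 0.15 (0.057 without Vector replicate 1 and 0.15 without OE-MMP28 replicate 3) and HIST1H3E between -0.32 and 0.094 (0.094 without Vector replicate 1). The cause was not tested.

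Libraries with the same replicate number did not deviate together (correlations 0.0168, 0.00798 and -0.0876). These values gave no sign that the numbers pair the libraries but cannot exclude it, and the labels did not state a pairing. With the replicate number as a block, 3 members were higher and 1 lower, the added member being HIST1H2BC (log2 fold change 1.46, adjusted p = 0.0137, edgeR). At these depths 50 members were not tested, 39 of them with at most 3 counts in every library, and the cause of the low counts was not tested.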
